A study of Macaca fascicularis with 2 samples.

Results

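The RNA-rich oocytes were 163 of the 20967 cells in a count table of fetal monkey ovary. They were chosen by 2 measured values, more than 3000 detected genes and a summed level of the oocyte genes GDF9, ZAR1 and ASTL of 5 or more per 10000 unique molecular identifiers (UMIs) of the cell, with at least 2 of these 3 genes detected. They made up 0.777% of all cells (exact binomial 95% interval 0.663 to 0.906%) and held 5.61% of all UMIs. Single cells of both ovaries of 1 Macaca fascicularis fetus at embryonic day 84 (E84) and of 1 fetus at embryonic day 116 (E116), for which the labels name no treatment, had been captured in droplets, in 1 library per stage. The Methods of the study kept cells with 200 to 3000 detected genes, so all 163 RNA-rich oocytes lay above that limit, while the shallow oocytes set beside them lay within it. Within these limits lay 16292 cells of this table, more than the paper retained, so which shallow oocytes it kept is not known. The barcodes that head the columns end in 1 or in 2 and name no stage. The cells therefore count as a single pooled sample here, with no result by stage, no p-value and no standard error. Levels are summed UMIs of a group scaled as counts per 1000000 UMIs (CPM), and every interval covers counting error only, at 95%.

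In the fetal ovary, germ cells enter meiosis, pair their chromosomes along the synaptonemal complex and then stop in late prophase as oocytes, which somatic pregranulosa cells enclose in primordial follicles. An oocyte then stores messenger RNA and proteins for the later embryo. Among them are the members of the subcortical maternal complex, while the zona pellucida proteins form the coat around the growing oocyte. GDF9 is a growth factor that the oocyte secretes, ZAR1 binds stored maternal RNA, and ASTL encodes ovastacin, the protease that cleaves the zona protein ZP2 after fertilization.

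The gate genes are a description only, since they chose the cells. GDF9 was detected in 161 of the 163 cells, ZAR1 in 162 and ASTL in 153, and 150 cells held all 3. Single cells had 0 to 4689 CPM of GDF9 (median 355), 0 to 2863 CPM of ZAR1 (median 441) and 0 to 3252 CPM of ASTL (median 506). The 14 deep cells with at least 2 gate genes at 5 to under 6 per 10000 had 614 CPM of FIGLA, 749 CPM of NLRP7 and 182 CPM of PADI6, and the 20 at 4 to under 5 per 10000 had 625, 587 and 63.0 CPM. The cells on both sides of the gate level were thus alike in FIGLA, a transcription factor of the oocyte. Of the meiotic gene SYCP3, the cells just inside had 154 CPM and those just outside 324 CPM. At the limit on genes, the 9 gated cells just above it (median 3146 genes) had 457 CPM of FIGLA and 769 CPM of PADI6, and the 7 just below it (median 2837 genes) had 317 and 482 CPM.

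All 163 RNA-rich oocytes carried barcodes ending in 2, where they were 5.88% of 2770 deep cells (exact binomial 95% interval 5.04 to 6.83%), and none was found among 1905 deep cells ending in 1, which allows a share of up to 0.157%. The endings share 27 barcodes in the whole table, and no barcode of an RNA-rich oocyte was among them. The cells had a median of 52669 UMIs (7593 to 119849) and 6790 detected genes (3019 to 9174). Their median depth was 20.9 times that of the 279 shallow oocytes, which passed the same gate with 3000 genes or fewer and had a median of 2518 UMIs and 1003 genes. It was 3.23 times that of the 1464 other deep germ cells (median 16292.5 UMIs) and 3.37 times that of the 3048 remaining deep cells (median 15632.5 UMIs). The other deep germ cells were outside the oocyte gate but had DDX4, DAZL, MAEL, SYCP3 and SMC1B together at 5 or more per 10000, and 883 of them ended in 1. The remaining deep cells passed neither gate. The gate rested on a median of 64 UMIs in an RNA-rich oocyte and of 3 UMIs in a shallow one.

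**Figure D1:**
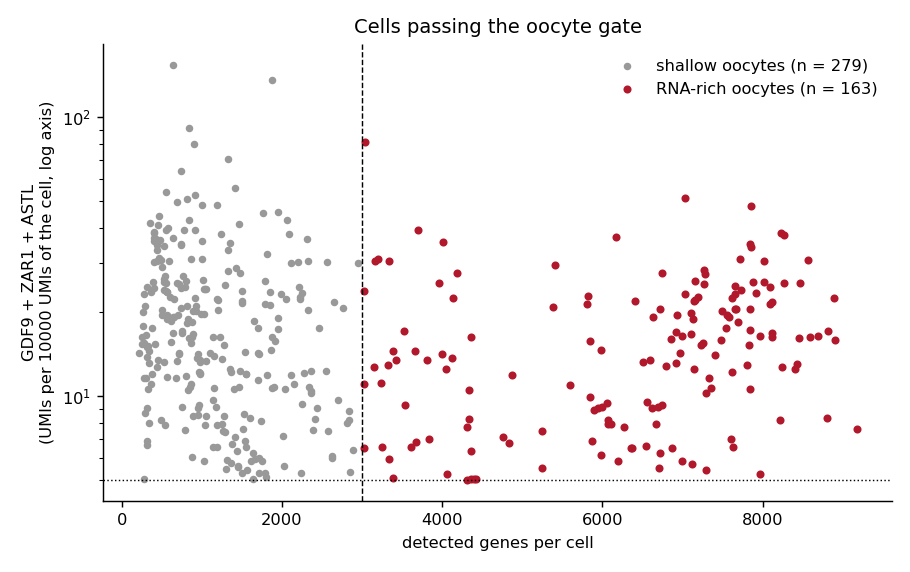
Detected genes per cell (horizontal axis) against the summed level of GDF9, ZAR1 and ASTL per 10000 UMIs (vertical log axis) for all 442 cells that passed the gate; each point is 1 cell, the dashed line is the limit of 3000 genes and the dotted line the gate level. The 163 RNA-rich oocytes reach 9174 genes and the 279 shallow oocytes lie left of the line.

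Markers of other ovarian cell types were low in the RNA-rich oocytes, apart from a few single genes. Macrophage and leukocyte markers summed to 0.958 CPM, with TYROBP, C1QA, PTPRC and CD3E at 0 UMIs (a count of 0 allows up to 0.359 CPM here), and 155 of the 163 cells had no UMI of the 7 genes. HBB, a haemoglobin chain, was at 17.4 CPM against 5806 CPM in the shallow oocytes. The 11 stroma markers summed to 203 CPM (0 to 3033 CPM in single cells, median 66.8) against 5608 CPM in the remaining deep cells. The 14 granulosa markers summed to 288 CPM (0 to 1734 CPM, median 214) against 1198 CPM. FOXL2 was at 0.479 CPM and AMHR2 at 9.82 CPM, and 135 CPM of the granulosa sum was LYPD1. The 6 pericyte markers summed to 93.3 CPM and the 6 of the ovarian surface epithelium to 6.95 CPM, against 812 and 256 CPM in the remaining deep cells. Somatic markers together (granulosa, stroma, endothelium, leukocyte and erythroid lists) reached 20 per 10000 in 15 cells. That sum includes VWF, which carried most of the endothelium list in these cells and was high in many of them. The cell at 24.1 per 10000 held 1854 CPM of VWF, the highest of all, so the 15 cells are not all cells rich in other somatic markers. The cells at 47.9 and 44.9 per 10000 held only 102 and 180 CPM of VWF, so other markers made up most of their sums. Mitochondrial transcripts took a median of 18.1% of a cell's UMIs (0.195 to 45.5%), and 139 cells were above 10%.

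FIGLA, a basic helix-loop-helix factor needed for primordial follicles and for zona gene expression, was at 535 CPM in the RNA-rich oocytes, 81.9 CPM in the other deep germ cells and 5.05 CPM in the remaining deep cells. Single oocytes ranged from 0 to 1492 CPM of FIGLA with a median of 512, and 160 of 163 had a UMI. The homeobox factor LHX8 was at 122 CPM (median over cells 98.4, range 0 to 358) against 17.3 and 1.07 CPM. NOBOX, a homeobox factor of early follicles, was at 34.5 CPM against 5.14 and 0.324 CPM. Thus 6 of 7 oocyte transcription factors were more than 2-fold higher than in the other deep germ cells, SOHLH1, TBPL2 and YBX2 among them. Over all 8452 genes with a mean of 10 CPM or more in that pair, 11.6% were that much higher and 22.6% that much lower. TAF4B, a subunit of a germ cell transcription complex, was at 11.98 CPM in the oocytes and 22.1 CPM in the other germ cells. Against the other deep germ cells ending in 2 only, which had 142 CPM of FIGLA, the log2 ratio of FIGLA was 1.91 instead of 2.71 and that of the list 1.73 instead of 2.35.

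At equal depth the same groups stood apart in shares of cells. After every cell was thinned to 7500 UMIs, FIGLA was detected in 94.5% of RNA-rich oocytes, 17.0% of other deep germ cells and 3.65% of remaining deep cells. Of the last group, 2800 of 3048 cells had somatic markers at 20 or more per 10000, and their share is a reference level only. Free RNA, doublets and the cells' own expression were not told apart in it. Unthinned shares were 98.2%, 24.0% and 7.38%. LHX8 was detected in 50.9%, 9.15% and 0.690% of thinned cells and PADI6 in 81.0%, 1.80% and 3.81%. For PADI6 the share in the other deep germ cells was not above that in remaining deep cells. These groups mix the barcode endings differently, with 581 of 1464 and 2026 of 3048 cells ending in 2, and the part of that mix was not tested. Thinning left out 21 other deep germ cells and 5 remaining deep cells.

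Of the signals by which an oocyte and its neighbours talk, JAG1, a Notch ligand, was at 470 CPM in the RNA-rich oocytes, 25.2 CPM in the other deep germ cells and 51.0 CPM in the remaining deep cells. Single oocytes held 0 to 1417 CPM of JAG1 (median 431). KIT, the receptor for the granulosa ligand KITLG, was at 119 CPM against 69.6 and 14.2 CPM. RSPO2, a secreted amplifier of WNT signalling, was at 39.8 CPM against 0.804 and 0.785 CPM. CD9, a surface protein that the egg needs for fusion with sperm, was lower, at 39.3 CPM against 82.2 and 98.5 CPM. Of the 5 genes tested in the list of secreted and surface factors, 3 were more than 2-fold higher and 1 lower than in the other deep germ cells. Against the remaining deep cells 4 were higher and 1 lower. GDF9 is among the higher genes by construction, since it chose the cells. Over all genes, 11.6% were higher and 22.6% lower in the first pair, and 22.3% and 27.1% in the second. Counts in so short a list are a description only. Several ligands were at or near 0. BMP15, the usual partner of GDF9, had 9 UMIs in all cells together (1.08 CPM), OOSP2 had 8, WNT4 had 4 and FGF8 had 0.

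The zona pellucida genes were unequal. ZP2 was at 71.9 CPM and found in 130 cells, with 5.98 CPM in other deep germ cells. ZP4 was at 64.2 CPM and found in 87 cells, with a median of 12.6 CPM and a highest cell of 1074 CPM, against 1.33 CPM in the other germ cells. ZP1 had 23 UMIs in 18 cells (2.76 CPM), and ZP3 has no value here. In shallow oocytes ZP4 was at 194 CPM, which is 3.02 times the level in the RNA-rich ones (log2 ratio −1.59, interval −1.84 to −1.34).

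Maternal-effect genes, 19 in the table, summed to 3957 CPM in the RNA-rich oocytes against 962 CPM in the other deep germ cells and 184 CPM in the remaining deep cells. Of the 16 with enough UMIs against other deep germ cells, 14 were more than 2-fold higher and 1 was lower, beside 11.6% and 22.6% of all genes. NLRP7 and NLRP2, members of a family of maternal NLR proteins, were at 962 and 713 CPM in the RNA-rich oocytes and at 281 and 235 CPM in the other deep germ cells. PADI6, a component of the subcortical maternal complex, was at 889 CPM in the oocytes and at 4.58 CPM in those germ cells (log2 ratio 7.6, interval 7.35 to 7.86). Single oocytes held 0 to 2776 CPM of PADI6 with a median of 648, and 21 of the 163 had none.

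The other components of that complex were lower in UMIs. OOEP was at 125 CPM, NLRP5 at 27.8 CPM, TLE6 at 13.7 CPM and KHDC3L at 12.6 CPM, the last detected in 33 cells. All 4 were above the other deep germ cells, where they stood at 41.1, 0.559, 1.89 and 1.05 CPM. NPM2, a histone chaperone of the egg, was at 135 CPM against 3.85 CPM, and the oocyte linker histone H1FOO at 25.8 CPM against 0.699 CPM. UHRF1 and DNMT1, partners in copying DNA methylation, went opposite ways: UHRF1 was at 135 CPM against 33.9 CPM, and DNMT1 at 36.5 CPM against 163 CPM in the other deep germ cells. Restricted to other deep germ cells ending in 2, the log2 ratio of PADI6 was 6.54 and that of the whole list 1.97 instead of 2.04.

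**Figure D2:**
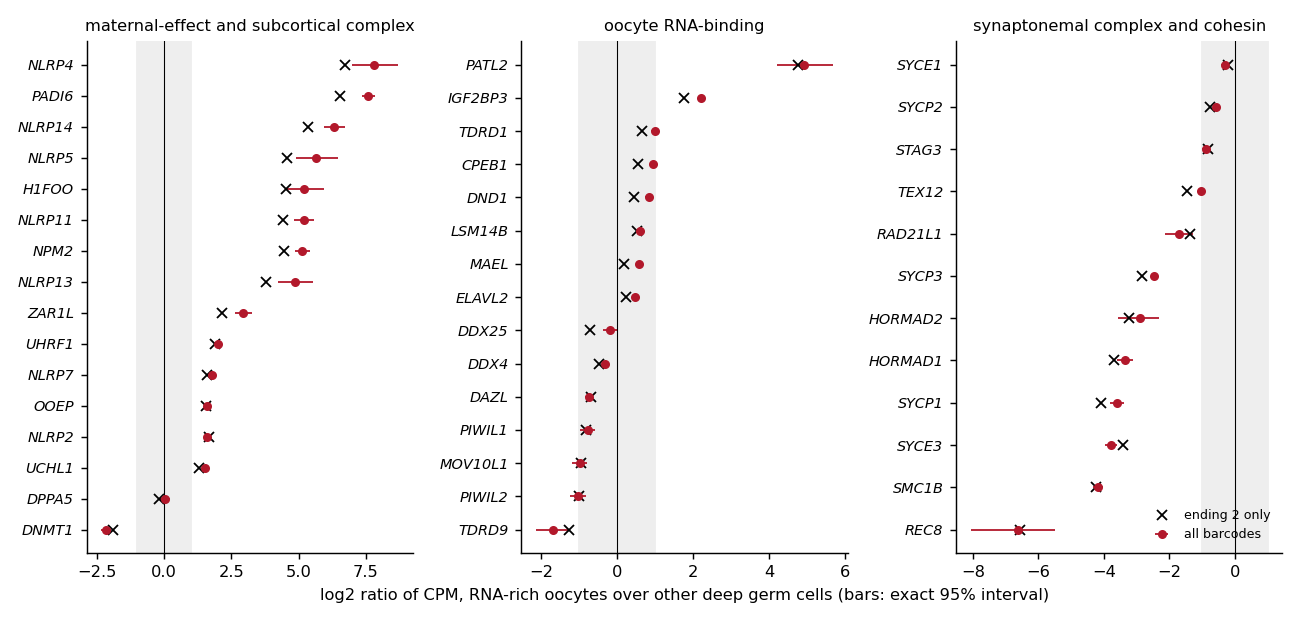
Log2 ratio of CPM of the RNA-rich oocytes over the other deep germ cells for each gene of 3 lists with a mean of 10 CPM or more (red points, exact 95% intervals of counting error) and over those germ cells with barcodes ending in 2 (black crosses); the grey band is within 2-fold. PADI6 stands at 7.6 and SMC1B at −4.17, while most RNA-binding genes lie inside the band. SMC1B, SYCP3, DDX4, DAZL and MAEL chose the other deep germ cells, so their ratios are a description.

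Of 15 genes for RNA-binding proteins of germ cells, 3 were more than 2-fold higher in the RNA-rich oocytes than in the other deep germ cells and 2 lower, beside 11.6% and 22.6% of all genes. Nothing particular to the list is read from these counts. DDX4, the germ cell helicase, was at 262 CPM against 324 CPM, and DAZL, a translation activator, at 140 CPM against 235 CPM; both chose the other deep germ cells and are a description. ELAVL2 was at 563 CPM against 404 CPM, and CPEB1, which controls the poly(A) tails of stored RNA, at 387 CPM against 201 CPM. IGF2BP3, which binds and stabilizes messenger RNA, was at 556 CPM against 120 CPM (log2 ratio 2.21). PATL2, a factor of oocyte RNA storage, was at 19.9 CPM against 0.664 CPM. BTG4, which takes part in clearing maternal RNA, had 40 UMIs (4.79 CPM), and NANOS3 none.

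Genes of the synaptonemal complex and of meiotic cohesin were lower. The 13 genes summed to 797 CPM in the RNA-rich oocytes and to 3464 CPM in the other deep germ cells (log2 ratio −2.12, interval −2.16 to −2.08), and 9 of 12 tested genes were more than 2-fold lower and none higher. SMC1B, a cohesin subunit of meiosis, was at 48.2 CPM against 869 CPM, and SYCP3, of the lateral elements, at 124 CPM against 688 CPM, both of which helped to choose the comparison cells. Both are part of the list sum and of the 9 lower genes, so the choice of cells shaped the sum, its ratio and that count in part. Over all genes of this pair, 22.6% were more than 2-fold lower. SYCP1 of the transverse filaments was at 22.5 CPM against 274 CPM, SYCE3 of the central element at 32.9 CPM against 454 CPM, and the cohesin subunit REC8 at 0.719 CPM against 70.3 CPM, none of them a gate gene. SYCP2 at 249 CPM against 369 CPM, SYCE1 at 95.8 CPM against 118 CPM and STAG3 at 87.7 CPM against 162 CPM differed by less than 2-fold. Within barcodes ending in 2 the log2 ratio of the list was −2.29.

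Genes for meiotic breaks and their repair were also lower, 10 of 11 tested by more than 2-fold. Over all genes of this pair, 22.6% were that much lower, a share that also stands beside the premeiotic genes below. DMC1, the meiotic strand exchange protein, and PRDM9, which marks sites of breaks, had 0 UMIs in 163 cells, and DMC1 was at least 43.4-fold lower than its 15.6 CPM in the other deep germ cells, with 3 counts taken for the oocytes together. SPO11, which makes the breaks, was at 3.59 CPM against 31.7 CPM, MEIOB at 22.2 CPM against 135 CPM and TEX11, a crossover factor, at 14.9 CPM against 149 CPM. Of 7 premeiotic genes 6 were more than 2-fold lower: STRA8, the retinoic acid-responsive gene of meiotic entry, had 6 UMIs (0.719 CPM against 23.7 CPM), and STK31 was the exception at 160 CPM against 208 CPM. Among the 10 genes with the lowest ratio to the other deep germ cells were RAD51AP2 (4.67 against 766 CPM, log2 ratio −7.36), SPDYA, an activator of cyclin-dependent kinase at meiotic telomeres (2.16 against 128 CPM), and CYP26A1, which breaks down retinoic acid (1.08 against 102 CPM).

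Cell cycle genes were not alike. MKI67 and TOP2A, markers of dividing cells, were at 21.0 and 55.5 CPM against 252 and 656 CPM in the other deep germ cells. UBE2C, which acts with the anaphase-promoting complex, was at 256 CPM against 148 CPM, and TYMS, for thymidylate synthesis, at 242 CPM against 143 CPM. Of 12 genes of S phase and mitosis, 6 were more than 2-fold lower and none was higher, beside 22.6% and 11.6% of all genes. WEE2, the oocyte kinase that keeps cyclin-dependent kinase 1 inactive during arrest, was at 130 CPM against 4.72 CPM. CCNB1 was at 10.2 CPM against 44.2 CPM, and CCNB2 at 158 CPM against 146 CPM. MOS, the kinase of the later arrest of the egg, had 33 UMIs (3.95 CPM), and GPR3, the receptor that holds oocytes in prophase, had 0.

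Among genes of oocyte survival, TP63, the p53 relative that guards arrested oocytes against DNA damage, was at 68.3 CPM in the RNA-rich oocytes, 9.48 CPM in the other deep germ cells and 0.802 CPM in the remaining deep cells. The metallothionein MT1X was at 1933 CPM against 51.5 and 36.5 CPM, and MT2A at 79.9 CPM against 4.62 and 1.07 CPM. Metallothionein genes are near-identical copies, so how reads were divided among them is uncertain. MCL1, a survival protein, was at 5.39 CPM against 27.0 and 84.8 CPM, and BCL2 at 2.16 CPM against 7.83 and 23.4 CPM. Of the 12 genes of this list tested against other deep germ cells 3 were more than 2-fold higher and 5 lower, with a median log2 ratio of −0.68, whereas the summed level has a ratio of 2.25, since MT1X made up most of it. The median over all 8452 genes was −0.26, with 11.6% of them more than 2-fold higher and 22.6% lower. FOXO3, a factor of follicle dormancy, had 1 UMI in all 163 cells, while CDKN1B, an inhibitor of cyclin-dependent kinases, was at 125 CPM, within 2-fold of the other deep germ cells.

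**Figure D3:**
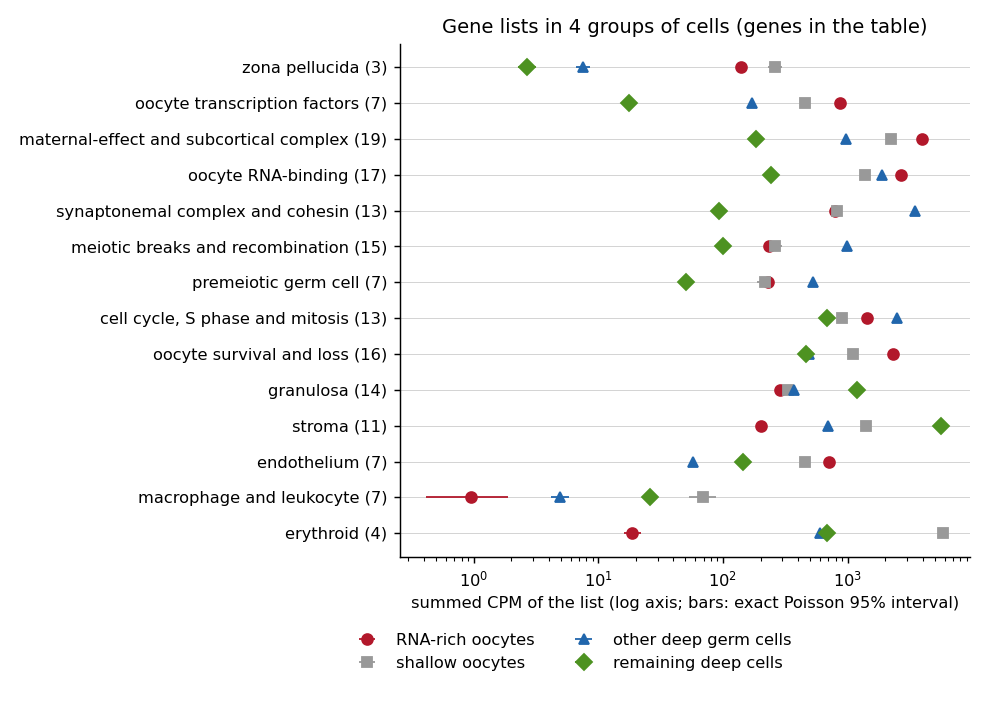
Summed CPM (horizontal log axis) of 14 gene lists in the RNA-rich oocytes, shallow oocytes, other deep germ cells and remaining deep cells, with exact Poisson 95% intervals of counting error; the number of genes in the table follows each name. The maternal-effect list is at 3957, 2219, 962 and 184 CPM in these groups and the synaptonemal list at 797, 816, 3464 and 92.3 CPM.

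The 14 genes of follicle dormancy and activation summed to 4436 CPM in the RNA-rich oocytes and 3042 CPM in the other deep germ cells, with 2 of 12 tested more than 2-fold higher and none lower. The 9 nuclear genes of oxidative phosphorylation summed to 2425 against 3313 CPM, with 1 of 9 lower and none higher. The 9 genes of pluripotency and primordial germ cells summed to 69.4 against 168 CPM, with 3 of 6 tested lower and none higher. Over all genes of this pair, 11.6% were higher and 22.6% lower, and counts in lists this short are a description only.

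Several genes better known from other tissues stood with the oocyte genes. CSF1R, the receptor of macrophage colony-stimulating factor, was at 404 CPM in the RNA-rich oocytes (0 to 1339 CPM in single cells, median 318) and at 6.19 and 4.37 CPM in other deep germ cells and remaining deep cells, with the macrophage markers at or near 0 as given above. VWF, a clotting protein of endothelium, was at 682 CPM (0 to 1854 CPM, median 545) against 35.5 and 18.9 CPM, while CLDN5 had 0 UMIs, KDR 2 and CDH5 11. Thinned to 7500 UMIs, 90.2% of RNA-rich oocytes had a UMI of VWF and 85.3% one of CSF1R, against 9.004% and 2.89% of remaining deep cells. PECAM1, another endothelial marker, was found in 9.20% of oocytes and 8.58% of remaining deep cells.

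DBH, the enzyme that makes noradrenaline, was at 214 CPM against 1.08 and 1.07 CPM. The hormone gene OXT was at 262 CPM against 13.2 and 2.64 CPM. LMOD3, an actin nucleator of muscle, was at 279 CPM against 4.27 and 2.20 CPM, and LDHAL6A, a lactate dehydrogenase-like enzyme, at 987 CPM against 81.8 and 8.46 CPM. KPNA7, the importin of the egg and early embryo, was at 498 CPM against 10.1 and 2.25 CPM, the largest ratio to remaining deep cells among genes with a mean of 50 CPM or more (log2 ratio 7.79). All of these were found in most of the 163 cells, in 127 for DBH and 162 for LDHAL6A, and OXT was found in 155. Of the 20 genes with the largest ratio to other deep germ cells, 6 carry only an Ensembl identifier. The named ones include NLRP4, DBH, PADI6, TFF3, NLRP14, KCNK9, LMOD3, CSF1R, CHRNE, KPNA7 and MAP3K7CL.

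Against the remaining deep cells, 22.3% of 8722 genes were more than 2-fold higher in the RNA-rich oocytes and 27.1% lower. Leaving mitochondrial genes out of the totals shifts the log2 ratios here by 0.14 and those to the other deep germ cells by 0.10, and the median of all genes from −0.05 to 0.09 and from −0.26 to −0.16. All 6 tested oocyte transcription factors, 15 of 16 maternal-effect genes, 14 of 14 RNA-binding genes and 9 of 9 synaptonemal and cohesin genes were on the higher side. The remaining deep cells had to fail the germ cell gate, so DDX4, DAZL, SYCP3 and SMC1B are low in them by construction. That choice shaped the counts of the RNA-binding and synaptonemal lists in part. The lower side held 10 of 10 stroma and 10 of 12 granulosa markers. KISS1 (5.75 against 499 CPM), COL1A2 (5.87 against 351 CPM) and the complement gene C7 (2.88 against 135 CPM) had the lowest ratios among genes with a symbol.

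The shallow oocytes passed the same gate and had like summed levels of the gate genes, 1867 CPM against 1822 CPM. Mitochondrial transcripts took 35.8% of their summed UMIs (median cell 17.2%) against 19.0% in the RNA-rich oocytes (median cell 18.1%), and somatic markers reached 20 per 10000 in 115 of 279 shallow cells. Over 7870 genes the median log2 ratio was 0.37, and 0.03 with mitochondrial genes left out of the totals, a shift of −0.34. In the RNA-rich oocytes, 12.2% of genes were more than 2-fold higher and 4.97% lower (959 and 391 genes), and with those totals 386 and 897 genes. Relative to the median of all genes, the maternal-effect list was higher by 0.47 on the log2 scale, the RNA-binding list by 0.59 and the transcription factors by 0.55. The synaptonemal list lay below it by −0.40 and the zona list by −1.28.

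Of 18 maternal-effect genes 5 were more than 2-fold higher in the RNA-rich than in the shallow oocytes and none lower, and of 14 RNA-binding genes 7 were higher. IGF2BP3 was at 556 CPM against 206 CPM, ELAVL2 at 563 CPM against 230 CPM and NLRP4 at 100.4 CPM against 30.1 CPM. The phosphatase gene PTPRE had the largest ratio, 129 CPM against 19.4 CPM (log2 ratio 2.74, interval 2.07 to 3.50), followed among genes with a symbol by CDA, a cytidine deaminase, and RAB29, a small GTPase. On the lower side stood HBB (log2 ratio −8.38), IGF2, COL3A1, COL1A1, IGFBP7 and APOE, and all 9 tested stroma markers were more than 2-fold lower. HBB, the stroma markers and mitochondrial transcripts thus moved with the comparison, and their part in the other ratios was not tested. With cells thinned to 1000 UMIs, PADI6 was found in 48.5% of RNA-rich and 25.9% of shallow oocytes (87.1% and 42.7% unthinned), against 0.525% of remaining deep cells. The thinned share of shallow oocytes is over 251 cells, since 28 with fewer UMIs were left out, and the unthinned one over all 279. FIGLA was found in 42.3% and 21.5%, against 0.492%. SMC1B gave 6.75% (interval 3.42 to 11.7%) and 9.56% (6.22 to 13.9%), intervals that overlap.

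The RNA-rich oocytes were not uniform, and other genes varied with the level of the gate genes. The cells were set in 3 bins by that level, 52 cells under 10 per 10000, 59 from 10 to under 20 and 52 at 20 or more, a division made after the data were seen. Their median depths were 33799, 62564 and 69472 UMIs. GDF9, ZAR1 and ASTL are higher from bin to bin by construction, so values of all genes here are a description. ZP4 was at 3.89, 26.3 and 138 CPM from the lowest to the highest bin, and was detected in 6, 37 and 44 cells. PADI6 was at 220, 776 and 1382 CPM, with a median over cells of 50.9, 661 and 1337 CPM. NLRP4 was at 9.99, 70.0 and 183 CPM, and the maternal-effect list at 2119, 3758 and 5198 CPM. EIF4E1B, an oocyte form of the cap-binding protein, was at 4.44, 30.8 and 118 CPM, and PATL2 at 2.22, 4.79 and 45.6 CPM.

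DBH followed the same order with 43.3, 218 and 305 CPM, as did the trefoil peptide gene TFF3 with 10.6, 82.3 and 173 CPM, VWF with 378, 685 and 849 CPM and CSF1R with 180, 429 and 502 CPM. FIGLA did not: it was at 588, 536 and 503 CPM, with medians over cells of 506, 528 and 512 CPM, and the RNA-binding list was at 2718, 2579 and 2715 CPM. Over 7879 genes, 6.02% were more than 2-fold higher in the highest than in the lowest bin and 11.9% lower.

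The lists of meiotic genes differed little to moderately between the bins. The synaptonemal and cohesin list was at 1018, 692 and 782 CPM (log2 ratio of the highest to the lowest bin −0.38), and the list of breaks and recombination at 384, 191 and 194 CPM (log2 ratio −0.98). Single genes with larger ratios were picked after their values were seen. PAGE1, a cancer-testis antigen gene, was at 310, 33.2 and 6.24 CPM, with a UMI in 42, 22 and 11 cells. HORMAD1, an axis protein of unpaired meiotic chromosomes, was at 67.2, 5.09 and 6.24 CPM, the crossover factor TEX11 at 47.8, 5.39 and 6.24 CPM, and the helicase HFM1 at 21.7, 2.69 and 1.87 CPM. SMC1B was at 104, 32.6 and 32.8 CPM, SYCP3 at 212, 91.0 and 110 CPM, and SOHLH1, a factor of the earliest oocytes, at 118, 39.8 and 29.0 CPM. For all of these but PAGE1 the middle bin lay near the highest bin. SYCP2 went the other way with 159, 239 and 309 CPM. Among genes with a mean of 50 CPM or more, PAGE1 had the lowest log2 ratio of the highest to the lowest bin. It was followed by ATF3 (−3.63), IFI27 (−3.60), TIMP1 (−3.42), HES1 (−3.34) and EGR1 (−3.31), and COL3A1 (−2.80) was also among the 20 lowest. HORMAD1, TEX11 and HFM1 had a mean under 50 CPM and could not enter that ranking, so their absence from it says nothing. SMC1B, SYCP3 and SOHLH1 could enter it and were not among those 20.

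These genes were named for their order over these same cells, so values in a subset of the cells are a description and no further support. In the 120 cells with more than 5000 genes, the log2 ratio of the highest to the lowest bin was 4.90 for ZP4, 2.64 for PADI6, −6.11 for PAGE1 and −3.55 for HORMAD1, against 5.15, 2.65, −5.64 and −3.43 over all cells. Without the 15 cells with somatic markers at 20 per 10000 or more it was 5.10, 2.63, −5.71 and −3.41. Other genes named as low in the highest bin moved more. Without those 15 cells COL3A1 was at −1.62 instead of −2.80, TIMP1 at −2.48 instead of −3.42 and IFI27 at −3.11 instead of −3.60. Stroma markers stood at 319, 253 and 85.8 CPM in the bins, and at 168, 89.8 and 83.2 CPM without those cells. Their part in these orders was not tested.

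**Figure D4:**
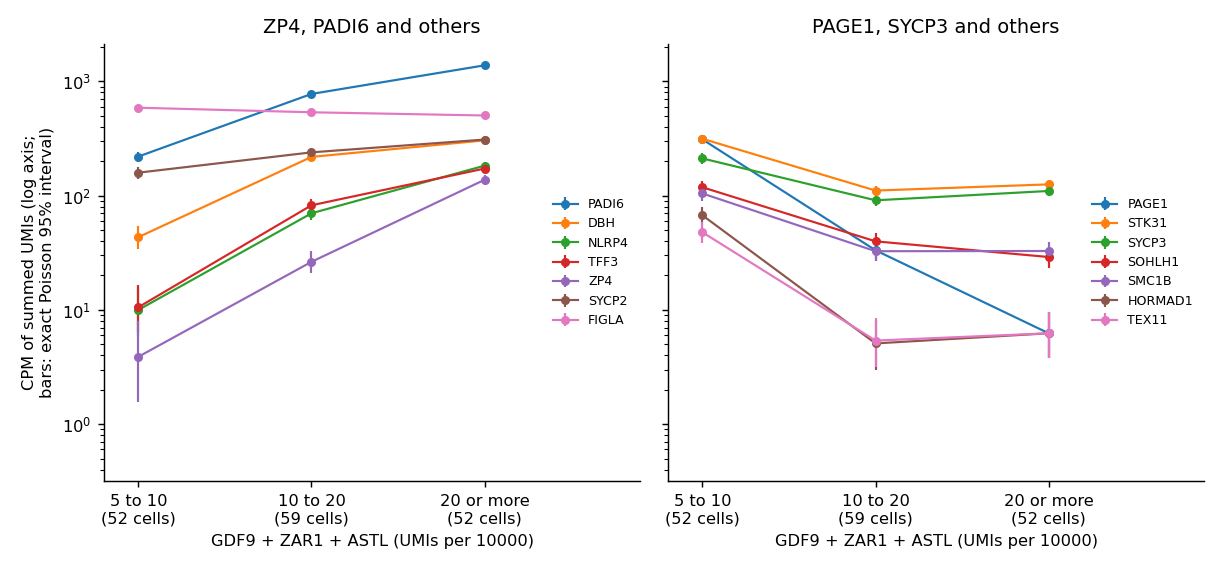
CPM (vertical log axis) of 14 genes in 3 bins of RNA-rich oocytes by the summed level of GDF9, ZAR1 and ASTL (52, 59 and 52 cells), with exact Poisson 95% intervals of counting error. ZP4, NLRP4, TFF3, DBH and PADI6 are highest in the highest bin, FIGLA stays between 503 and 588 CPM, and PAGE1, HORMAD1 and TEX11 are highest in the lowest bin. The genes shown were picked after their values were seen and are not the genes with the largest ratios as a set.

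The lists were also set out by the number of detected genes. In 25 cells with up to 4000 genes, 18 with more than 4000 and up to 5000, and 120 with more than 5000, the maternal-effect list was at 3640, 3382 and 3991 CPM, the transcription factors at 698, 986 and 867 CPM and the synaptonemal list at 695, 866 and 798 CPM. Mitochondrial transcripts were at 147990, 144389 and 193263 CPM, and the 12 ribosomal protein genes at 40947, 38150 and 32858 CPM. VWF was at 386, 302 and 707 CPM. Across the 163 cells, Spearman's rho was 0.33 between UMIs and the mitochondrial percentage and 0.24 between UMIs and the maternal-effect list, both sharing each cell's total. The level of PADI6 had a rho of 0.63 with NLRP2, 0.63 with DBH, 0.54 with CSF1R and −0.03 with FIGLA.

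Variation from cell to cell was measured as the ratio of variance to mean after each oocyte was thinned to 7500 UMIs, where pure sampling gives about 1. Of 5226 genes with a mean of at least 0.2 UMIs, 304 had a ratio over 2, and the median was 1.14. Among genes with a symbol, the mitochondrial genes COX2 (65.7), COX3 (62.6), CYTB (53.0), ATP6 (52.1), ND1, ND4 and ND2 stood first, followed by MT1X (22.2), the interferon-induced IFI27 (20.5), the immediate early genes EGR1 (18.3) and FOS (15.2), TMSB10 (13.8), the p53 ligase gene MDM2 (13.7) and the chaperone gene HSP90AA1 (13.0).

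MT1X ranged from 0 to 12769 CPM with a median of 1196, and 91 cells had 1000 CPM or more. Its spread was broad, since the 10 highest cells held 25.3% of the summed single-cell CPM. FOS and EGR1 lay in few cells: medians were 50.6 and 18.7 CPM, and the 10 highest cells held 62.3% and 73.9%. The cell with most EGR1 (5711 CPM) had somatic markers at 47.9 per 10000. The cell with most FOS (5169 CPM) and most IFI27 had them at 35.6 per 10000. Other high cells were under 20 per 10000, such as one with 2115 CPM of FOS at 17.4. The part of somatic RNA in this variation was not tested. FOS was at 507, 262 and 70.2 CPM in the bins of gate level, but its median over cells was 56.5, 55.1 and 40.9 CPM. IFI27 likewise had 55.7% in the 10 highest cells and a highest cell of 10012 CPM, whereas MX1, an interferon-induced GTPase, had 24.5% there and was found in 161 cells with a median of 595 CPM. FIGLA was more even, with 12.7% in the 10 highest cells.

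**Figure D5:**
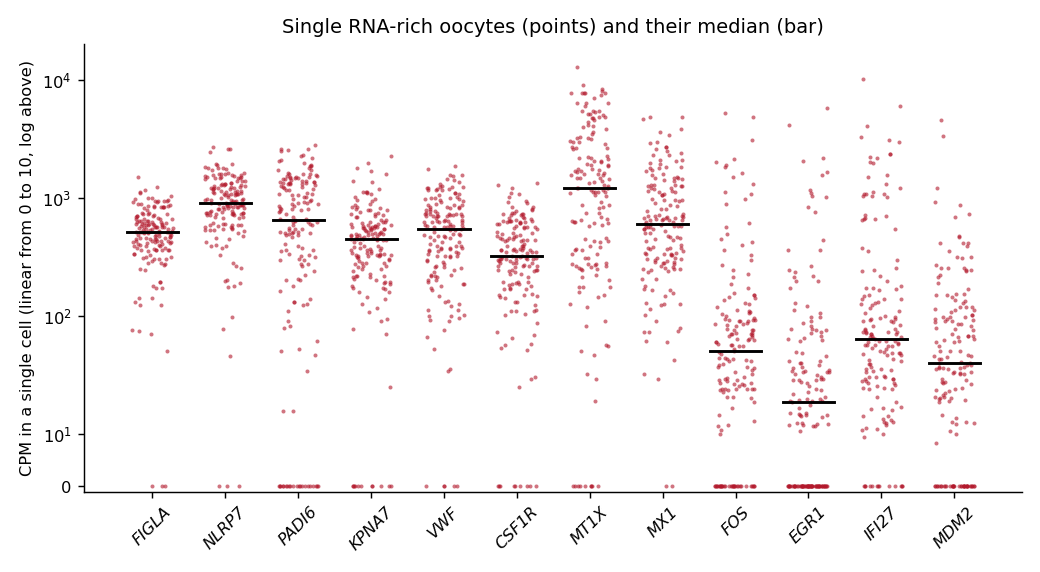
CPM of 12 genes in each of the 163 RNA-rich oocytes (points) with the median over cells (bar); the vertical axis is linear from 0 to 10 and logarithmic above, and the horizontal position within a gene has no meaning. FIGLA, NLRP7 and KPNA7 form compact clouds, MT1X spans 0 to 12769 CPM, and FOS, EGR1, IFI27 and MDM2 have medians under 65 CPM with 12, 10, 23 and 3 cells at 1000 CPM or more.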

How the data were processed

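The authors aligned the reads to Macaca_fascicularis_5.0 with Cell Ranger 3.0.2 and deposited raw counts of UMIs per gene and cell for both 3′ libraries together. The table holds 18446 genes, 3213 of them under an Ensembl identifier alone. The sources used here state neither a doublet filter nor a removal of free RNA, and none was applied. Cells with somatic markers at 20 or more per 10000 UMIs were left out in an alternative. The somatic sum includes VWF, so this also left out RNA-rich oocytes with high VWF.

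UMIs were summed over the cells of a group and scaled to CPM. Log2 ratios have exact conditional binomial intervals, levels exact Poisson intervals and shares exact Clopper-Pearson intervals, at 95%. A group at 0 was taken at 3 counts. Genes entered a comparison where the mean of both groups' levels was 10 CPM or more, so a gene could enter through its high group alone. Named genes are those of 25 lists, the 20 largest and 10 smallest ratios per comparison (mean of 50 CPM or more), the 20 most abundant and the 15 most variable genes, and, added after the data were seen, the genes ordered by gate level. Members and lists were chosen with earlier results of these data known. Genes of the lists that the table lacks, such as ZP3, SOHLH2 and POU5F1, have no value here. Cells were thinned by drawing UMIs without replacement. Interval and thinning were tested on simulated data. Python 3.11.15, numpy 2.4.6, scipy 1.17.1, pandas 2.3.3 and matplotlib 3.10.9 were used.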

Additional observations from a re-analysis of the deposited data

How the results depend on the processing

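The number of RNA-rich oocytes was 246 with the gate at 2 per 10000 and 24 with at most 10% mitochondrial UMIs, and stayed within 1.5 times of 163 under the other settings. Against shallow oocytes, 386 genes were more than 2-fold higher with totals without mitochondrial genes. Genes more than 2-fold lower numbered 597 with the mean of single cells, 897 with those totals, 1364 with at most 10% mitochondrial UMIs and 149 without cells rich in somatic markers, against 391. The log2 ratio of the maternal-effect list to shallow oocytes (0.83) was 0.76, 0.50, 0.73, 0.76 and 0.71 with the mean of single cells, totals without mitochondrial genes, the gate at 10, at most 10% mitochondrial UMIs and without cells rich in somatic markers. The ratio of the synaptonemal list to other deep germ cells (−2.12) was −2.20, −2.02, −2.23, −1.92 and −2.25 in the same order, and −2.29 with barcodes ending in 2 alone. That list includes SMC1B and SYCP3, which helped to choose the other deep germ cells. The ratio of the transcription factors to remaining deep cells (5.63) was 5.77 with totals without mitochondrial genes, 6.05 with at most 10% mitochondrial UMIs and 5.72 with barcodes ending in 2 alone. Genes with a variance to mean ratio over 2 numbered 4825 without thinning, where depth adds to the variance, against 304. Of 243 values of list ratios past 2-fold, taken over the settings tried, 243 kept their direction and 231 stayed past 2-fold. Direction is a weak criterion for ratios that far from equal, and the largest move was 5.64 on the log2 scale. Of the main values, 22 were marked as moved under some setting and 40 as the same, and of the other values 263 and 148. Barcodes ending in 1 alone gave no value, since no RNA-rich oocyte ended in 1. No paired analysis was possible because each stage has 1 library and the columns name no stage.

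With 1 library per stage, no spread between animals can be given. Doublets were not called, and leaving out cells rich in somatic markers kept 148 of the 163 oocytes.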

Other observations

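MDM2, the ligase that degrades p53, was above 500 CPM in 7 of the 163 RNA-rich oocytes, cells picked after its values were seen. They held 319 of its 811 UMIs, and their summed level was 1302 CPM against 60.7 CPM in the other 156 cells. The same 7 cells had 118 CPM of BCL2L14 against 6.29 CPM, with a UMI in 4 of them, and 127 CPM of DDB2, a DNA damage-binding protein, against 32.3 CPM, with a UMI in 6. DDIT4 was at 306 CPM against 49.2 CPM and found in all 7, and SESN2 at 85.7 CPM against 25.1 CPM, also in all 7; both are stress-responsive inhibitors of mTOR signalling. CDKN1A rested on 8 UMIs in 3 of the 7 cells (32.7 CPM against 4.07 CPM) and BBC3, a pro-apoptotic gene, on 14 UMIs in 4 (57.1 against 9.75 CPM). NANOG, a pluripotency factor, was at 93.9 against 6.42 CPM, on 23 UMIs in 3 of the 7 cells. FOS was lower, at 61.2 against 247 CPM, and FIGLA was at 408 CPM in the 7 cells and 538 CPM in the others. The median depth of the 7 cells was 28963 UMIs against 53889.5 UMIs. The median over the 7 cells was 34.5 CPM for BCL2L14, 18.9 CPM for BBC3 and 0 CPM for CDKN1A and NANOG. The genes set beside MDM2 were chosen with the data known and follow no ranking over all genes. The share of all genes this much higher in the 7 cells is not given, so no shared response is read from them. These are values of few cells, and no test was made.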
